A study of Mus musculus with 18 samples.

Results

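Amino acid transporters were examined in Tregs of mice with Treg-specific deletion of CHD8, a chromatin remodeler, and in Tregs that the study calls WT. The 10 genes were chosen by name, as transporters that bring amino acids into T cells or report them to the growth kinase mTORC1, out of 35865 genes listed under a single name. Their mRNA was measured by RNA-seq in Tregs of the spleen, sorted as YFP+ cells after CD4+ T cells had been isolated, in 2 Chd8-/- and 2 WT libraries, each given by its replicate number. The labels give the genotype CHD8Flox/FloxFoxp3YFP-Cre for Chd8-/- Tregs and CHD8flox/floxFoxp3YFP-Cre/+ for WT Tregs. Both labels thus name Foxp3YFP-Cre and homozygous floxed Chd8. The study instead describes its WT mice as Chd8+/+ with Foxp3YFP-Cre. Which description holds for the WT libraries cannot be told from the labels, so WT is used here as the study's name for the group. The labels of all 4 libraries also list Poly IC injection. Cre and YFP are expressed from the Foxp3 gene, which is active in Tregs, so deletion is limited to cells that have expressed Foxp3. The study lists separate mice for the libraries of each genotype.

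Cells take up large neutral amino acids such as leucine through a pair of proteins, in which the heavy chain Slc3a2 brings a light chain such as Slc7a5 to the cell surface. Glutamine enters through the exchanger Slc1a5 and the sodium-coupled carriers Slc38a1 and Slc38a2, and some of it can be exported again in exchange for leucine. Activated T cells are known to need these carriers to grow, and the lysosomal protein Slc38a9 reports arginine to mTORC1, which is itself active in Tregs.

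Promoter sequence is shown for the 2 members with the lowest p between genotypes, Slc3a2 and Slc38a2, and for the 2 that were almost silent, Slc1a4 and Slc7a11. RefSeq windows (GRCm38, 250 bases before to 50 after an annotated start, 300 bases in all) were at hand for 7 of the 10 members, with 9 windows among them. Each stretch below covers the 120 bases before and the first 30 bases after the start, on the minus strand of the genome, 5′ to 3′. The stretch of Slc3a2 is at chr19:8713868-8714017 and that of Slc38a2 at chr15:96699699-96699848. The stretch of Slc1a4 is at chr11:20332684-20332833 and that of Slc7a11 at chr3:50443584-50443733. Those of Slc3a2 and Slc7a11 belong to starts inside the annotated gene span. Capitals mark the ATF4 element (TGATGNAA) in Slc1a4 and Slc7a11 and the antioxidant element (TGACNNNGC) in Slc38a2, read on either strand.
Slc3a2: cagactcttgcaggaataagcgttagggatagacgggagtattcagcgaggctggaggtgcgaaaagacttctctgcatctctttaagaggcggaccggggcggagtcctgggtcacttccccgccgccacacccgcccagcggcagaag
Slc38a2: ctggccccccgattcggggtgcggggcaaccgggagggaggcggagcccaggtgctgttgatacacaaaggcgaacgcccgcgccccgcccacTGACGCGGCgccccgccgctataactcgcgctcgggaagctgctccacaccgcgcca
Slc1a4: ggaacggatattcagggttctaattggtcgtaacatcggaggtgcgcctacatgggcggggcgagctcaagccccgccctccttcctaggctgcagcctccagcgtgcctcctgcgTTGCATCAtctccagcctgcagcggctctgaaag
Slc7a11: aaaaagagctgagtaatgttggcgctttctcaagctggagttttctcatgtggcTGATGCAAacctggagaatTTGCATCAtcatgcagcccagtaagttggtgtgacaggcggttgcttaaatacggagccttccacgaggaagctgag

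ATF4, the transcription factor of the amino acid starvation response, binds the first of these elements. Slc7a11 held 2 matches to it and Slc1a4 held 1, whereas 3.97% of 32851 mouse promoter windows of the same length held any. The antioxidant element, a site of Nrf2 (Nfe2l2), was matched in the windows of Slc38a2 and Slc7a6 and in 1 of the 2 windows of Slc7a1, and in 12.4% of all windows. The E-box CACGTG, which Myc binds, was found in 7.15% of all windows and in no member window. Motifs were searched on both strands with a palindrome counted once, and a match describes letters only. The mRNA of the 3 factors themselves was measured in the same libraries, with TPM (a transcript level scaled by gene length and library total) of 89.5 and 71.8 in Chd8-/- and 86.5 and 93.6 in WT Tregs for Atf4, 69.5 and 67.0 against 60.0 and 71.0 for Nfe2l2, and 54.4 and 65.7 against 46.3 and 59.4 for Myc. These ranges overlapped for all 3 genes.

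The libraries were checked before the members were compared. TPM above 0 was listed for 19540 to 20984 genes per library, and the number of reads behind the values is unknown. Chd8 measured 14.9 and 11.4 TPM in the Chd8-/- pair against 24.7 and 27.6 TPM in the WT pair, a log2 fold change of -0.95 (SE 0.29, limma adjusted p = 0.455; -0.77 without Chd8-/- replicate 2) over the whole gene, which does not separate the floxed exons and shares 654 exon bases with Gm26590 on the other strand. Foxp3, which defines Tregs, was at 203 to 232 TPM in every library. Chd8-/- replicate 2 stood apart. The summed level of 7 myeloid markers was 1570 TPM there against 25.7 to 183 TPM in the other libraries, that of 6 erythroid markers 1990 against 8.7 to 385 TPM, and that of 5 B cell markers 140.0 against 27.8 to 45.5 TPM. Lyz2 alone gave 1360 TPM of the myeloid sum, and Cd79a (73.7 TPM) and Ms4a1 (53 TPM) were the largest values in the B cell sum. Cd14 (3.7 TPM), Adgre1 (4.3 TPM) and Cd22 (1.1 TPM) were not highest in this library, and Cd79b (8.9 TPM) was lowest there. In Chd8-/- replicate 1 the defining markers Fcer1g, Cd14, Adgre1 (myeloid), Pax5 (B cell), Hba-a2, Hbb-bs and Hbb-bt (erythroid) were listed at 0, and in WT replicates none of these was at 0. Other markers went differently. The neutrophil gene S100a8 gave 5.3 and 16.5 TPM in the Chd8-/- libraries and was listed at 0 in both WT libraries (unadjusted p = 0.00472, limma adjusted p = 0.402), and the B cell genes Cd79a and Cd79b were at 17.8 and 17.6 TPM in Chd8-/- replicate 1 against 21.8 and 15.6 TPM in WT replicate 1 and 10.1 and 12.4 TPM in WT replicate 2. Alas2, of heme synthesis, was at 8.0 and 7.5 TPM against 15.0 and 21.5 TPM (unadjusted p = 0.0264, limma adjusted p = 0.455). The 6 CD8 and NK cell markers summed to 59.4 to 95.8 TPM in all 4 libraries. The Y-linked genes Ddx3y, Uty, Eif2s3y and Kdm5d were at 0 in all 4 libraries and Xist was at 500 to 843 TPM, although mice of both sexes were listed for each genotype. The value without Chd8-/- replicate 2 is therefore given beside the members and the lists. In these bulk libraries, fewer cells of a type and less RNA per cell cannot be told apart.

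The transporters covered a wide range of levels in Tregs. In WT Tregs the order by mean TPM, which is scaled by gene length, was Slc38a2 (61.6), Slc1a5 (52.4), Slc38a1 (29.6), Slc7a5 (22.5), Slc7a1 (16.3), Slc3a2 (14.8), Slc7a6 (7.1), Slc38a9 (3.05) and Slc1a4 (0.40), and Slc7a11 was listed at 0. No neighbours in this order overlapped in their 2 WT values. In Chd8-/- Tregs the order was Slc1a5 (53.8), Slc38a2 (36.5), Slc38a1 (28.3), Slc3a2 (25.2), Slc7a1 (12.6), Slc7a5 (11.4), Slc7a6 (5.75), Slc38a9 (2.50), Slc1a4 (0.50) and Slc7a11 (0.10), and there Slc38a1 overlapped with Slc3a2, Slc7a1 with Slc7a5, and Slc7a5 with Slc7a6. The 3 glutamine carriers Slc1a5, Slc38a1 and Slc38a2 made up 65.9 to 72.4% of the summed level of all 10 genes in each library. That sum was 194 and 159 TPM in Chd8-/- and 206 and 210 TPM in WT Tregs, so the Chd8-/- sums lay below both WT sums. The sources name both a 3′ assay and a standard RNA-seq kit for these libraries, and which was used bears on levels compared between genes.

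**Figure D1:**
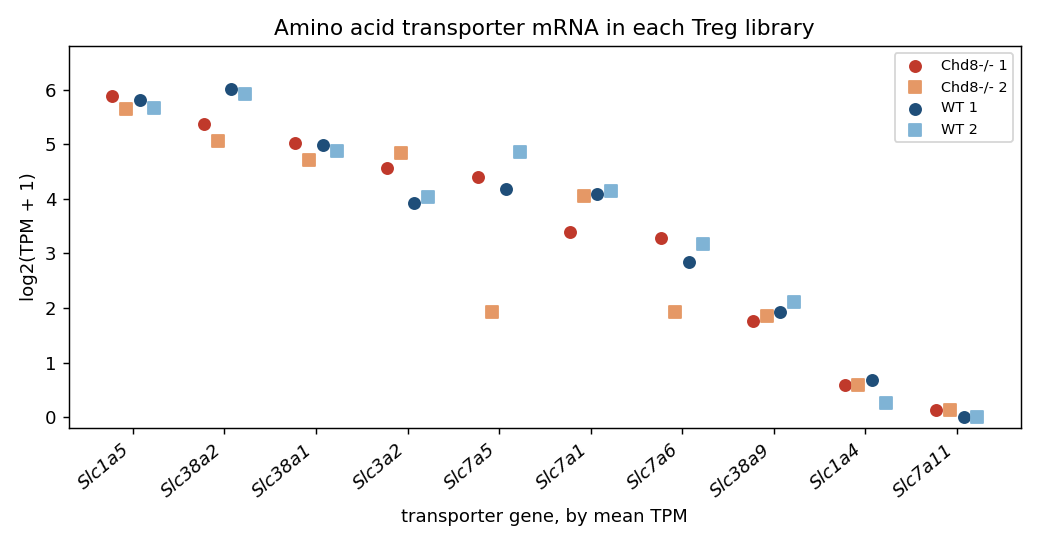
Level of each transporter gene on the log2(TPM + 1) scale in each of the 4 libraries (points, with no averaging), ordered by mean TPM. Slc3a2 lies higher in both Chd8-/- libraries and Slc38a2 lower, and the points of Slc7a5 and Slc7a6 are low in Chd8-/- replicate 2 alone.

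Genotypes were compared for the 15240 genes with at least 1 TPM in 2 or more libraries, on the log2(TPM + 1) scale, with limma and Benjamini-Hochberg adjustment over all of them. An adjusted p under 0.05 was reached by 0 genes (0% of those tested), members included, and the lowest adjusted p was 0.0807. At an unadjusted p under 0.05 there were 595 genes higher in Chd8-/- Tregs (3.9%) and 960 lower (6.3%), and with quantile normalization, which sets all libraries to the same distribution, 786 and 790. Of the 10 members, 8 were tested, and Slc1a4 and Slc7a11 were too low. Among the 8, the 2 Chd8-/- values lay above both WT values for 1 gene (Slc3a2) and below both for 3 genes (Slc7a1, Slc38a2 and Slc38a9), against 14.8% and 27.8% of all tested genes. With quantile normalization these shares were 21% and 21.3%, and 1 member lay above (Slc3a2) and 1 below (Slc38a2). At an unadjusted p under 0.05 there was 1 member, Slc38a2, which was lower. With limma fitted without a trend or with a replicate block there were 0. Slc3a2 joined Slc38a2 with a pseudocount of 0.1 TPM, no filter, a mean of at least 5 TPM or quantile normalization. In fits that leave out 1 library, which set 1 value against 2, the members that passed changed, and fold changes of single genes are given below. The median log2 fold change of the 8 genes was -0.30, with 2 above 0 and 6 below, beside a median of -0.15 over all tested genes. An exact permutation test of 2 libraries against 2 cannot give a p below 0.33, so no such test was used.

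Slc3a2 (CD98 heavy chain, chr19:8706882-8723369, minus strand) was the only tested member with a higher level in both Chd8-/- libraries. It stood at 22.7 and 27.6 TPM in Chd8-/- against 14.2 and 15.4 TPM in WT Tregs. Both Chd8-/- values were above both WT values. The log2 fold change was 0.72 (SE 0.27, 95% interval -0.02 to 1.46), or 1.65-fold on this scale, with an unadjusted p of 0.0538 and an adjusted p of 0.496 by limma. Without Chd8-/- replicate 2 it was 0.59, and over all leave-one-out fits it ran from 0.59 to 0.86. Relative to the median of all tested genes the difference was 0.87.

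Neither tested light chain was higher in both Chd8-/- libraries. Slc7a5 (LAT1, chr8:121881146-121907686, minus strand), the main leucine carrier of activated T cells, gave 20 and 2.8 TPM in the Chd8-/- libraries and 17.1 and 27.9 TPM in the WT libraries. Chd8-/- replicate 1 lay between the WT values and replicate 2 was below all others, so the groups overlapped. The Chd8-/- libraries differed 7.14-fold in TPM, and 5.41% of tested genes differed at least as far between these libraries on the log2(TPM + 1) scale. The log2 fold change was -1.36 (SE 0.91, 95% interval -3.82 to 1.10, limma adjusted p = 0.659). It was -0.12 without Chd8-/- replicate 2 and -2.59 without replicate 1, so its size rests on the library with the high blood cell markers, whose part in this value was not tested.

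Slc7a6 (y+LAT2, chr8:106168219-106198714, plus strand), an exchanger of cationic for neutral amino acids, was low in the same library. It measured 8.7 and 2.8 TPM in the Chd8-/- pair against 6.2 and 8.0 TPM in the WT pair. Chd8-/- replicate 1 was the highest of the 4 values and replicate 2 the lowest. The log2 fold change of -0.41 (SE 0.58, limma adjusted p = 0.834) turned to 0.27 without replicate 2. The cystine carrier Slc7a11 (xCT, chr3:50364936-50499087, minus strand) was at 0.1 TPM in both Chd8-/- libraries and listed at 0 in both WT libraries, close to the rounding step of 0.1 TPM, and no fold was calculated.

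Heavy and light chain levels were set side by side, since each transporter holds 1 of each. The ratio of Slc3a2 to the sum of Slc7a5 and Slc7a6 was 0.791 and 4.93 in Chd8-/- and 0.609 and 0.429 in WT Tregs. Both Chd8-/- ratios were above both WT ratios, and Chd8-/- replicate 1 was the closer to WT. Slc7a5 made up 53.3 and 17.5% of the summed TPM of the 6 light chains Slc7a5, Slc7a6, Slc7a7, Slc7a8, Slc7a10 and Slc7a11 in Chd8-/- Tregs and 64.0 and 68.9% in WT Tregs. Slc7a10 (Asc-1, a carrier of small neutral amino acids, chr7:35186095-35201116, plus strand) made up 21.3 and 54.4% in Chd8-/- and 4.87 and 7.41% in WT Tregs. It stood at 8.0 and 8.7 TPM in Chd8-/- against 1.3 and 3.0 TPM in WT Tregs. The groups did not overlap, and the log2 fold change was 1.62 (SE 0.45, unadjusted p = 0.0204, limma adjusted p = 0.441), 1.57 without Chd8-/- replicate 2. The exons of Slc7a10 overlap those of Lrp3 on the other strand over 239 bases, and Lrp3 gave 1.9 and 2.3 TPM in the Chd8-/- libraries and 0.5 and 0.9 TPM in the WT libraries. Strand was not stated for the counting, and reads from the shared bases cannot be told apart.

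**Figure D2:**
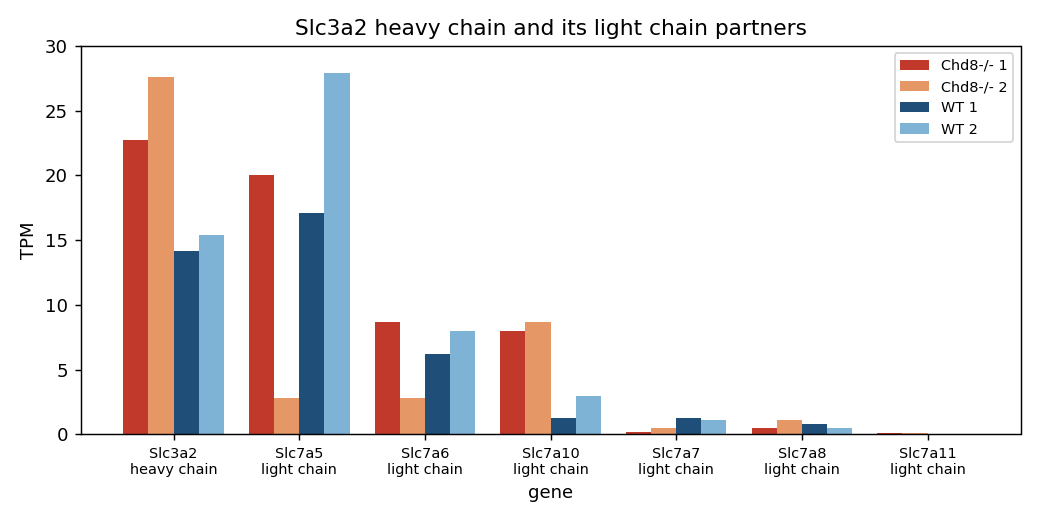
TPM of the heavy chain Slc3a2 and of 6 light chains in each of the 4 libraries (bars, 1 per library, from 0). Slc3a2 is at 22.7 and 27.6 TPM in Chd8-/- and 14.2 and 15.4 TPM in WT, Slc7a5 is 2.8 TPM in Chd8-/- replicate 2, and Slc7a10 is 8.0 and 8.7 TPM in Chd8-/- against 1.3 and 3.0 TPM in WT.

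Among the glutamine and neutral amino acid carriers, Slc38a2 (SNAT2, chr15:96687392-96699728, minus strand) did not overlap between genotypes whereas Slc1a5 and Slc38a1 overlapped. Slc38a2 measured 40.5 and 32.4 TPM in the Chd8-/- pair against 63.3 and 59.9 TPM in the WT pair. Both Chd8-/- values were below both WT values. The log2 fold change was -0.75 (SE 0.23, 95% interval -1.37 to -0.12, unadjusted p = 0.0284, limma adjusted p = 0.455), and the WT level was 1.68-fold the Chd8-/- level on this scale. It was -0.59 without Chd8-/- replicate 2, and between -0.91 and -0.59 over all leave-one-out fits. The unadjusted p was under 0.05 without Chd8-/- replicate 1 and not without Chd8-/- replicate 2 or either WT replicate.

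Its neighbour Slc38a1 (SNAT1, chr15:96571418-96643438, minus strand) lies 43953 bp away on the same strand with 0 annotated protein-coding genes between them. Slc38a1 stood at 31.3 and 25.3 TPM in Chd8-/- against 30.7 and 28.5 TPM in WT Tregs. The 2 WT values lay inside the Chd8-/- range, and the log2 fold change was -0.07 (SE 0.25, 95% interval -0.75 to 0.61, limma adjusted p = 0.944). The ratio of Slc38a2 to Slc38a1 was 1.29 and 1.28 in Chd8-/- and 2.06 and 2.10 in WT Tregs. This ratio is free of the scaling of each library, and it was lower in both Chd8-/- libraries, with a small gap between the libraries of a genotype. It draws on the same Slc38a2 values as the comparison above, so it is a description and not a second test.

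Slc1a5 (ASCT2, chr7:16781334-16798274, plus strand), an exchanger of glutamine and other neutral amino acids, gave 58.3 and 49.3 TPM in the Chd8-/- libraries and 55.1 and 49.7 TPM in the WT libraries. The groups overlapped, with a log2 fold change of 0.03 (SE 0.22, 95% interval -0.56 to 0.63, limma adjusted p = 0.970). The ratio of Slc38a2 to Slc1a5 was 0.695 and 0.657 in Chd8-/- and 1.15 and 1.21 in WT Tregs, so Slc38a2 was the more abundant of the pair in WT and the less abundant in Chd8-/- Tregs. Slc1a4 (ASCT1, chr11:20302180-20332713, minus strand), a carrier of serine and other small neutral amino acids, measured 0.5 and 0.5 TPM in the Chd8-/- pair against 0.6 and 0.2 TPM in the WT pair, which overlap.

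The cationic carrier and the lysosomal member lay lower in both Chd8-/- libraries, with 95% intervals that span 0. Slc7a1 (CAT1, chr5:148327410-148399904, minus strand), which imports arginine and lysine, stood at 9.5 and 15.6 TPM in Chd8-/- against 15.9 and 16.6 TPM in WT Tregs. Both Chd8-/- values were below WT, replicate 2 by a narrow margin. The log2 fold change was -0.39 (SE 0.36, 95% interval -1.35 to 0.58, limma adjusted p = 0.744), and it was -0.06 without replicate 1 and -0.72 without replicate 2. Slc38a9 (chr13:112656189-112738752, plus strand) gave 2.4 and 2.6 TPM in the Chd8-/- libraries and 2.8 and 3.3 TPM in the WT libraries, with a log2 fold change of -0.21 (SE 0.39, 95% interval -1.26 to 0.84, limma adjusted p = 0.874). The groups did not overlap, but with quantile normalization they did, for Slc38a9 and for Slc7a1, and the difference of Slc38a9 became 0.09. It was -0.25 without Chd8-/- replicate 2. The exons of Slc38a9 overlap those of Gm52034 on the other strand over 145 bases. No exon overlap with another gene was annotated for the other 9 members.

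**Figure D3:**
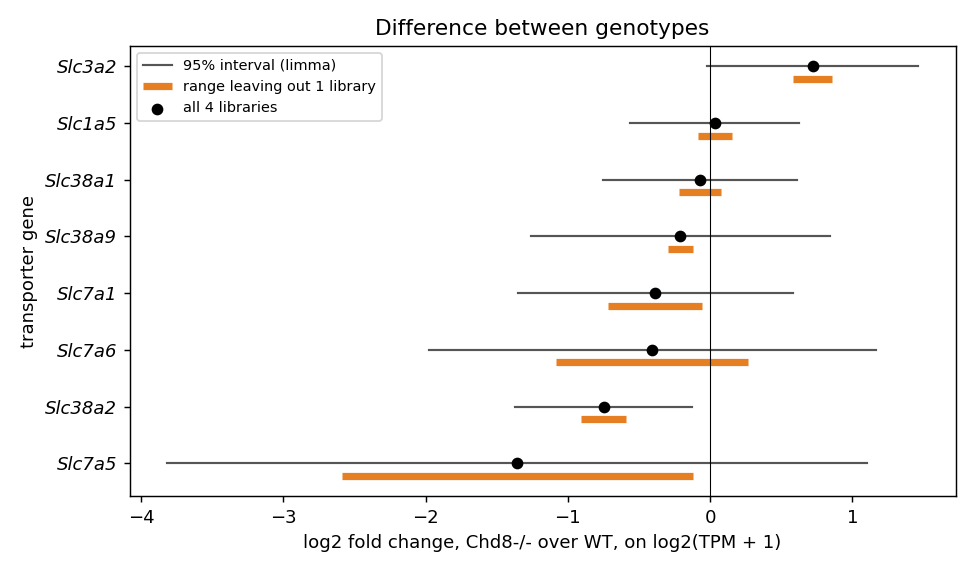
Log2 fold change of the 8 tested members, Chd8-/- over WT on the log2(TPM + 1) scale, from all 4 libraries (points), with the 95% interval of limma (thin lines) and the range over the fits that leave out 1 library (thick bars). The thick bar runs from 0.59 to 0.86 for Slc3a2, from -0.91 to -0.59 for Slc38a2 and from -2.59 to -0.12 for Slc7a5, and the thin lines of all but Slc38a2 cross 0.

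Other amino acid transporters were counted next. Of 43 further genes, 25 were too low to test, 12 of these at 0 in all 4 libraries, and 18 were tested. The groups did not overlap for 4 genes higher and 7 genes lower in Chd8-/- Tregs, against 14.8% and 27.8% of all tested genes. The median log2 fold change of all 18 was -0.37. With quantile normalization the counts turned to 6 higher and 2 lower, against 21% and 21.3% of all tested genes, with a median of -0.16. The median was -0.18 without Chd8-/- replicate 2 and -0.03 without WT replicate 1. An unadjusted p under 0.05 was reached by 1 gene in each direction, Slc7a10 as given above, and Slc3a1 (rBAT, the heavy chain of cystine transport, chr17:85028347-85064241), which measured 6.3 and 5.8 TPM in the Chd8-/- pair against 12.5 and 23.4 TPM in the WT pair. The log2 fold change of Slc3a1 was -1.37 (SE 0.42, unadjusted p = 0.0282, limma adjusted p = 0.455), and both Chd8-/- values were the lower. Its exons overlap those of Prepl on the other strand over 606 bases, and Prepl stood at 7.4 and 4.7 TPM in Chd8-/- against 9.6 and 9.5 TPM in WT Tregs. Without Chd8-/- replicate 2 neither gene had an unadjusted p under 0.05.

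Genes that sense amino acids for mTORC1 were counted in the same way. Of 29 genes 28 were tested, with 5 higher and 5 lower without overlap (14.8% and 27.8% of all tested genes) and a median log2 fold change of -0.01, or 0.06 without Chd8-/- replicate 2 and 0.14 with quantile normalization. The Sestrins Sesn1 and Sesn2 are leucine sensors that hold mTORC1 in check, and Sesn1 was lower and Sesn2 higher in both Chd8-/- libraries. Sesn3, the most abundant Sestrin, stood at 387.3 and 388.5 TPM in Chd8-/- against 344.8 and 329.1 TPM in WT Tregs. Its groups did not overlap, and its log2 fold change was 0.20 (SE 0.15, limma adjusted p = 0.684). Sesn1 gave 59.8 and 33.2 TPM in the Chd8-/- libraries and 159 and 166 TPM in the WT libraries, a log2 fold change of -1.84 (SE 0.34, unadjusted p = 0.00423, limma adjusted p = 0.402). Sesn2 measured 43.9 and 21.3 TPM in the Chd8-/- pair against 2.7 and 11.1 TPM in the WT pair, a log2 fold change of 2.24 (SE 0.73, unadjusted p = 0.0336, limma adjusted p = 0.465). Neither gene overlapped between genotypes. The ratio of Sesn2 to Sesn1 was 0.734 and 0.642 in Chd8-/- against 0.0170 and 0.0668 in WT Tregs, a separation that follows from their opposite directions. Rragc, a GTPase that brings mTORC1 to the lysosome, stood at 78.7 and 118 TPM in Chd8-/- against 52.0 and 47.8 TPM in the WT libraries (log2 fold change 0.94, SE 0.28, unadjusted p = 0.0240, limma adjusted p = 0.449). Without Chd8-/- replicate 2, the values were -1.43 for Sesn1, 2.75 for Sesn2 and 0.65 for Rragc. Over all leave-one-out fits they ran from -2.26 to -1.43 for Sesn1, from 1.39 to 3.10 for Sesn2 and from 0.65 to 1.23 for Rragc. Among the limma fits of all 4 libraries, the unadjusted p of Sesn2 was not under 0.05 with no filter. In fits that leave out 1 library, which set 1 value against 2, whether Sesn2 and Rragc passed changed with the library left out.

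Genes of amino acid use followed. Of 22 enzymes of amino acid metabolism 19 were tested, 2 higher and 5 lower without overlap, near the 14.8% and 27.8% of all tested genes. Their median log2 fold change was -0.26, and it was -0.13 without Chd8-/- replicate 2, -0.49 without WT replicate 1 and -0.06 without WT replicate 2. Glul, which makes glutamine from glutamate, gave 75.3 and 68.7 TPM in the Chd8-/- libraries and 126 and 147 TPM in the WT libraries (log2 fold change -0.91, SE 0.20, unadjusted p = 0.00806, limma adjusted p = 0.403), and -0.85 without Chd8-/- replicate 2. Of 19 ATF4 targets 16 were tested, 4 higher and 2 lower without overlap (14.8% and 27.8% of all tested genes), with a median of 0.09, which was 0.01 without Chd8-/- replicate 2, -0.03 without WT replicate 1 and 0.28 with quantile normalization. The 1 gene with an unadjusted p under 0.05 was Sesn2, which is on both lists. Of 10 transcription regulators 8 were tested, 0 higher and 1 lower without overlap (14.8% and 27.8% of all tested genes), with a median of -0.08, or 0.02 without Chd8-/- replicate 2. By limma none had an unadjusted p under 0.05.

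**Figure D4:**
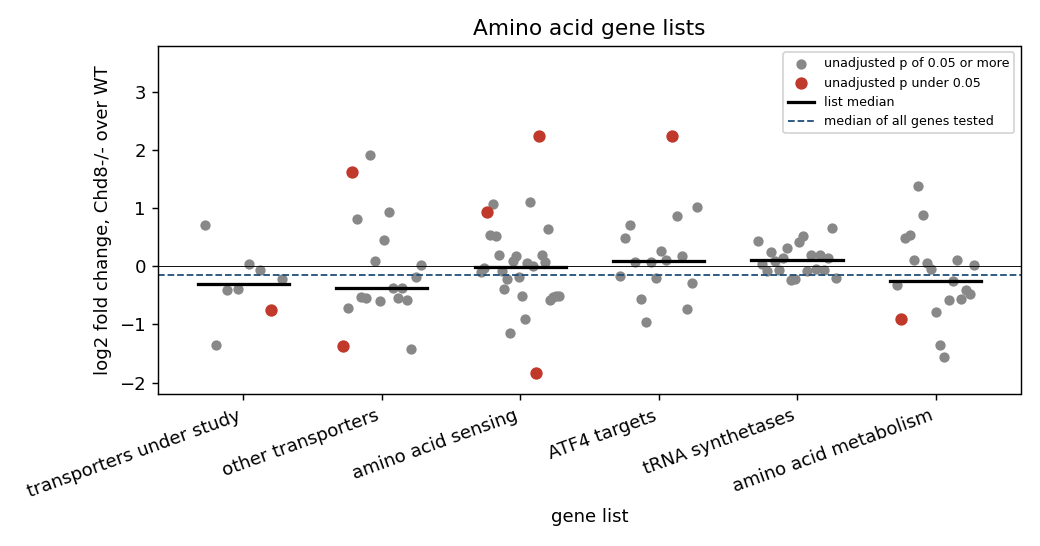
Log2 fold change of each tested gene, Chd8-/- over WT on the log2(TPM + 1) scale, in the lists of amino acid genes (points, with the genes at an unadjusted p under 0.05 in red), the list medians (black bars) and the median of all 15240 tested genes (dashed line at -0.15). The members have a median of -0.30, and Sesn2 at 2.24 and Sesn1 at -1.84 are the outermost red points.

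The activation state of the cells was described with the same measure. The study reports enlarged spleens and inflamed skin and lung in its Chd8-/- mice. By flow cytometry it found ICOS, GITR (Tnfrsf18) and PD-1 (Pdcd1) protein raised on Tregs of these mice. In females without disease that carried both CHD8-deficient and CHD8-proficient Tregs, only PD-1 of these was raised on the deficient cells. Inflammation and CHD8 loss within the cell cannot be told apart in these libraries. Of 9 genes of activation and cycling all were tested, 5 higher and 0 lower without overlap, beside 14.8% and 27.8% of all tested genes, with a median log2 fold change of 0.35, or 0.33 without Chd8-/- replicate 2. With quantile normalization 5 were higher and 1 lower, beside 21% and 21.3% of all tested genes. The log2 fold change was above 0 for 7 genes and below 0 for 2, Pdcd1 (-0.36) and Mcm5 (-0.34), which overlapped between genotypes. Icos, a co-stimulatory receptor, measured 254 and 213 TPM in the Chd8-/- pair against 110 and 110 TPM in the WT pair (log2 fold change 1.07, SE 0.19, unadjusted p = 0.00347, limma adjusted p = 0.402). Pcna, a DNA replication clamp, had a log2 fold change of 0.42 (SE 0.15, unadjusted p = 0.0482, limma adjusted p = 0.487). Without Chd8-/- replicate 2 the values were 1.2 for Icos and 0.48 for Pcna. The unadjusted p of Icos was under 0.05 in all 11 alternatives, and that of Pcna was not with a replicate block, without a trend, with a mean of at least 5 TPM, with quantile normalization, or without Chd8-/- replicate 1 or either WT replicate. The 8 Treg markers summed to 3680 to 4511 TPM, 2 of them higher and 2 lower without overlap (14.8% and 27.8% of all tested genes), and Tnfrsf18 (GITR) was the 1 with an unadjusted p under 0.05, at 382 and 289 TPM in Chd8-/- and 170 and 237 TPM in WT Tregs. It did not reach this with a replicate block, without a trend, without a filter, or with any 1 library left out. These differences stood beside those of Slc3a2 and Slc38a2, and their part in those differences was not tested.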

How the data were processed

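The TPM table of RNA-seq, with 2 Chd8-/- and 2 WT libraries of YFP+ splenic Tregs, was analysed. The authors trimmed reads, aligned them to mm10 with STAR 2.6.1e, removed duplicates, counted RefSeq genes with featureCounts 1.6.2 and deposited TPM, rounded to 0.1 in the file. TPM keeps no depth, and no counting interval is given. The study lists separate mice for each genotype, while the labels name no animals.

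Entries under repeated names (4 of 35869) were left out. The 15240 genes with at least 1 TPM in 2 or more libraries were compared as log2(TPM + 1), a scale that understates differences of low genes, with limma 3.58.1 in R 4.3.3 (two-sided, a mean-variance trend in eBayes, p adjusted by Benjamini-Hochberg), after a check on simulated data. Other steps used pandas 2.3.3 and numpy 2.4.6 in Python 3.11.15, with matplotlib 3.10.9 for figures. The members and gene lists were chosen with earlier results of these data known. Named genes are every member, Chd8, and list genes with an unadjusted p under 0.05 and no overlap, at most 3 per direction and list. Some list genes are not reported here. Atf4, Nfe2l2 and Myc were named for their motifs, and Sesn3, Pdcd1, Mcm5 and single markers after their values were seen. Castor1, Castor2 and Mars1 were matched through older RefSeq symbols. Positions and promoters are from RefSeq on GRCm38.

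Replicate numbers are shared between genotypes, and deviations of same-numbered libraries correlated at -0.01 over 15240 genes. With 2 libraries per genotype this cannot show whether the numbers pair the libraries, and the main fit left them unpaired. Alternatives were pseudocounts of 0.1 and 5 TPM, no filter, a mean of at least 5 TPM, eBayes without trend, a replicate block, quantile normalization, and each library left out. ATAC-seq and CHIP-seq peaks are placed on mm39 and were not combined with positions on GRCm38. They were not used here.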

Additional observations from a re-analysis of the deposited data

How the results depend on the processing

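Of 87 member values under 11 alternatives, 81 kept their direction and 6 reversed, and Slc3a2, Slc7a5, Slc7a1 and Slc38a2 reversed under none. Many of the 81 were fixed in advance, since the filters, the replicate block and eBayes without trend leave each fold change as it is. Slc3a2, Slc7a1 and Slc38a2 did not overlap between genotypes, so another pseudocount or a library left out could not reverse them either. Slc38a1 reversed to 0.043 and Slc38a9 to 0.090 with quantile normalization, which moves the median of all genes from -0.15 to 0.00. With each library left out, Slc7a6 ran from -1.08 to 0.27 and Slc38a1 from -0.22 to 0.079, both reversed without Chd8-/- replicate 2. Slc1a5 ran from -0.084 to 0.15, reversed without Chd8-/- replicate 1 and, at -0.039, without WT replicate 2. The causes were not tested. Slc7a10, Slc3a1, Rragc, Sesn1, Sesn2, Glul, Icos, Pcna, Tnfrsf18, S100a8, Alas2 and Wars kept their direction in all 132 values, which were added after the data were seen. None of these genes overlapped between genotypes in the main fit, so quantile normalization was the only alternative that could have reversed them.

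The count of called genes was 2 (Cdkn1a and Mir7649) at a mean of at least 5 TPM, where fewer genes are tested and the mean-variance trend is refitted. It was 0 under the other alternatives. The median of the members, -0.30, was -0.16 with a pseudocount of 5 TPM, -0.14 without a filter, which adds Slc1a4 and Slc7a11, and -0.040 with quantile normalization. It ran from -0.36 to -0.022 with each library left out, the value nearest 0 being that without Chd8-/- replicate 2. Members without overlap numbered 2 with quantile normalization, and 4 to 8 with a library left out, where 1 value is set against 2 (8 without Chd8-/- replicate 1, 7 without replicate 2, against 28% and 52.7%, and 32.5% and 38.7%, of all genes higher and lower). A replicate block gave 0 called genes, 4 members without overlap and a median of -0.30, and changed no adjusted call. At an unadjusted p under 0.05 it lost Slc38a2, Pcna, Tnfrsf18 and Alas2 and gained Slc38a5, Lamtor1, Gatsl3 and Ddit4 among the listed genes. Unadjusted calls over all genes, 595 higher and 960 lower, were 919 and 2262 without Chd8-/- replicate 1, 220 and 340 without WT replicate 1, and 255 and 332 without WT replicate 2. The planned comparison with ATAC-seq and CHIP-seq peaks, at either window, was not run, since no annotation of mm39 was used. With 2 libraries per genotype, differences of the size seen in Slc3a2 or Slc38a2 did not pass the adjustment over 15240 genes.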

Other observations

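The aminoacyl-tRNA synthetases, which load amino acids onto tRNAs for protein synthesis, showed small differences. All 20 were tested, and log2 fold changes ran from -0.24 to 0.67, with a median of 0.12 beside -0.15 over all genes. The groups did not overlap for 5 genes, all higher in Chd8-/- Tregs, beside 14.8% higher and 27.8% lower among all tested genes. The median was 0.24 without Chd8-/- replicate 2 and 0.02 without WT replicate 1. By limma 0 had an unadjusted p under 0.05, and Wars had one with a pseudocount of 0.1 TPM, no filter, a mean of at least 5 TPM or quantile normalization. Wars, which loads tryptophan and was named after its value was seen, measured 28.7 and 29.9 TPM in the Chd8-/- pair against 19.5 and 16.8 TPM in the WT pair (log2 fold change 0.67, SE 0.25, unadjusted p = 0.0544, limma adjusted p = 0.496).

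A few further genes were named after their values were seen. Bckdk, the kinase that restrains branched-chain amino acid breakdown, stood at 14.5 and 4.2 TPM in Chd8-/- against 22.3 and 28.8 TPM in WT Tregs. Bckdhb, a subunit of the dehydrogenase, was at 8.5 and 1.4 TPM against 11 and 11.4 TPM, and Bckdha at 8.3 and 1.9 TPM against 7.9 and 8.1 TPM. Chd8-/- replicate 2, which was also lowest for Slc7a5 and Slc7a6, had the lowest value for all 3 genes, and not for Bcat1 and Bcat2 of the first step of this breakdown, at 2.4 and 2.2 TPM there against 0.9 to 3.1 and 1.9 to 4.1 TPM in the other libraries. The glutamine and asparagine carrier Slc38a5, also named after its values were seen, gave 1.0 and 6.8 TPM in the Chd8-/- libraries and 0 and 0.1 TPM in the WT libraries. The erythroid markers summed to 8.7 and 1990 TPM in the Chd8-/- libraries and 385 and 352 TPM in the WT libraries. A link between these sums and Slc38a5 was not tested.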
